A study of Mus musculus with 9 samples.

Results

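The genes described here encode the nuclear subunits of the mitochondrial respiratory chain and the ATP synthase, measured by RNA sequencing in ovarian granulosa cells of female C57BL/6 mice, the somatic cells that surround the oocyte. They were chosen by symbol: the numbered Nduf genes and Ndufab1 for complex I, Sdha to Sdhd for complex II, the Uqcr genes and Cyc1 for complex III, Cox4 to Cox8 for complex IV and Atp5 for complex V. Of 97 identifiers that matched, 7 carried a pseudogene symbol and were left out. A further 7 fell below the filter of at least 1 FPKM (a level scaled to the length of the gene and to a size set for the library) in at least 3 of the 9 libraries. The remaining 83 genes, among 14431 genes tested, make up the set: 39 in complex I, 4 in complex II, 9 in complex III, 14 in complex IV and 17 in complex V. The rule used no difference between groups.

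There were 3 groups of 3 libraries, all from wild type mice. CTX_HCQ mice received cyclophosphamide, an alkylating chemotherapy agent that damages the ovary, at 120 mg per kg, together with oral hydroxychloroquine, a lysosome-directed antimalarial, at a daily 40 mg per kg that started 7 days ahead of the cyclophosphamide and ended 4 weeks afterwards. CTX mice received the same cyclophosphamide dose alone. Control mice are called vehicle-treated in the design text and untreated in the labels. Neither the age of the mice nor whether a library came from 1 mouse or several is given in the sources used here, so p-values cover only library-to-library spread, some of which may be technical. Values of the 3 libraries of a group are given below in the order of replicates 1, 2 and 3.

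Complex I takes electrons from NADH and complex II takes them from succinate, both passing them to ubiquinone. Complex III hands them on to cytochrome c, complex IV reduces oxygen with them, and complex V uses the proton gradient that complexes I, III and IV build to make ATP. Complexes I, III, IV and V each combine nuclear subunits with subunits encoded in the mitochondrial genome, whereas complex II is encoded in the nucleus alone. In the ovary the chain supplies ATP to granulosa cells, and the mitochondria of steroid-making luteal cells also carry out the side chain cleavage of cholesterol.

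Binding sites for nuclear respiratory factor 1 (NRF1), for ETS factors such as GABPA, for YY1 and for the estrogen-related receptor alpha (ERRA) are known from promoters of respiratory chain genes. Their core letters were looked for on both strands in the 250 bases before the start of each gene in RefSeq promoters of build GRCm38.p6, which held 70 promoters for 65 of the 83 members. Most of the matched members hold none of the NRF1 letters. The members shown lay above their 9-library mean in CTX_HCQ 2 and below it in CTX_HCQ 3, apart from the subunit c gene Atp5g2. In CTX_HCQ 2 the deviation in log2(FPKM + 1) was only 0.16 for Uqcr11, beside 0.86 for Cox6a1. The stretches below show the letters found. They run 5′ to 3′ on the gene's strand, with matches in capitals. The first 6 hold the NRF1 letters, Cox6a1 holds ETS letters as well, Uqcr11 and Uqcrh hold ETS letters, and Atp5j holds YY1 letters followed by ETS letters.
Cox6a1, chr5:115348959-115349130, minus strand: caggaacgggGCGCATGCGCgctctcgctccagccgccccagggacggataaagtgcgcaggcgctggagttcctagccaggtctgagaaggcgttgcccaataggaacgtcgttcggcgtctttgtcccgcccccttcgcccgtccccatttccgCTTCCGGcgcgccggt
Atp5g2, chr15:102671070-102671099, minus strand: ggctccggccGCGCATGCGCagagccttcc
Atp5k, chr5:108434430-108434459, minus strand: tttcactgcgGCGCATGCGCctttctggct
Ndufa11, chr17:56717692-56717721, plus strand: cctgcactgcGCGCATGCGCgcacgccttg
Sdhb, chr4:140961207-140961234, plus strand: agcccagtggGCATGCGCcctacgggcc
Ndufa6, chr15:82354357-82354384, minus strand: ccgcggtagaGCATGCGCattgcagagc
Uqcr11, chr10:80406871-80406897, minus strand: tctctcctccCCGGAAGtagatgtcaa
Uqcrh, chr4:116075071-116075090, minus strand: gtatgccgcaCTTCCGGcca
Atp5j, chr16:84835021-84835074, minus strand: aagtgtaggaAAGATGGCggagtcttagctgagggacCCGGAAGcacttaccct
The NRF1 letters searched were GCGCATGC, whose reverse complement overlaps them where the run is longer, and they stood in 8 of the 70 promoters (11.4%), beside 2.26% of 32851 promoters of all genes. The ETS letters CCGGAAG stood in 12 (17.1%, beside 6.91%), the ERRA letters AAGGTCA in 5 (7.14%, beside 4.08%) and the YY1 letters AAGATGGC in 1 (1.43%, beside 1.56%). A match describes letters and is not a measured binding site. Nrf1 itself stood at a low level. It measured 4.09, 4.18 and 4.37 FPKM in CTX_HCQ, 5.12, 4.34 and 4.09 FPKM in CTX and 3.74, 5.16 and 4.12 FPKM in Control. Of 11 regulators listed, 9 were tested and none was called in any comparison, while Ppargc1a and Ppargc1b, coactivators of mitochondrial biogenesis, lay below the filter.

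Recovered depth was lowest in CTX_HCQ 3, at 13898112 reads, and highest in Control 2, at 17751053 reads. The library size estimated behind the FPKM was not the same as this depth. It was 15344525 in CTX_HCQ 3, above the recovered reads, and 16820966 in CTX 1, below the 17288814 recovered there. The 7 granulosa cell markers, among them Fshr, Foxl2 and Amh, were all tested and summed to 4015 to 4754 FPKM in CTX_HCQ, 4029 to 5724 FPKM in CTX and 3527 to 5513 FPKM in Control. Of the defining markers, Amh measured 401.9, 298 and 189 FPKM in CTX_HCQ, 172, 208 and 425 FPKM in CTX and 379, 346 and 540 FPKM in Control. Amh stood at the low end of the 7 markers against Control, and others went the other way. Their log2 differences ran from -0.74 to 1.28 for CTX vs Control, with 3 higher and 4 lower. For CTX_HCQ vs Control they ran from -0.55 to 1.32, with 5 higher and 2 lower, and none was called. Libraries stood apart within groups. Transcripts of the mitochondrial genome made up 28.9% of summed FPKM in CTX 3, where elsewhere they made up 11.7% to 17.5%. In CTX_HCQ 3 the level of a gene tracked its length, with a Spearman correlation across the 14431 genes of 0.339 between exon length and deviation from the gene's 9-library mean. The same correlation was -0.292 in CTX_HCQ 2 and -0.321 in CTX 3.

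The 83 subunit genes summed to 5590, 8913 and 3080 FPKM in CTX_HCQ, 8286, 6154 and 7688 FPKM in CTX and 6320, 4927 and 5558 FPKM in Control. The highest and the lowest sum of the 9 libraries were thus both in CTX_HCQ, and the CTX_HCQ mean of 5861 ± 2926 FPKM (SD, n = 3) carried a spread that covered the means of CTX, at 7376 ± 1100 FPKM, and Control, at 5602 ± 697 FPKM. CTX_HCQ 3 was the lowest library for 77 of the 83 members (92.8%), beside 24.8% of all tested genes. CTX_HCQ 2 was the highest for 38 members (45.8%, beside 16.4% of all genes), CTX 3 for 24 and CTX 1 for 20. In a bulk sample, fewer cells of a type and less RNA per cell cannot be told apart.

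**Figure D1:**
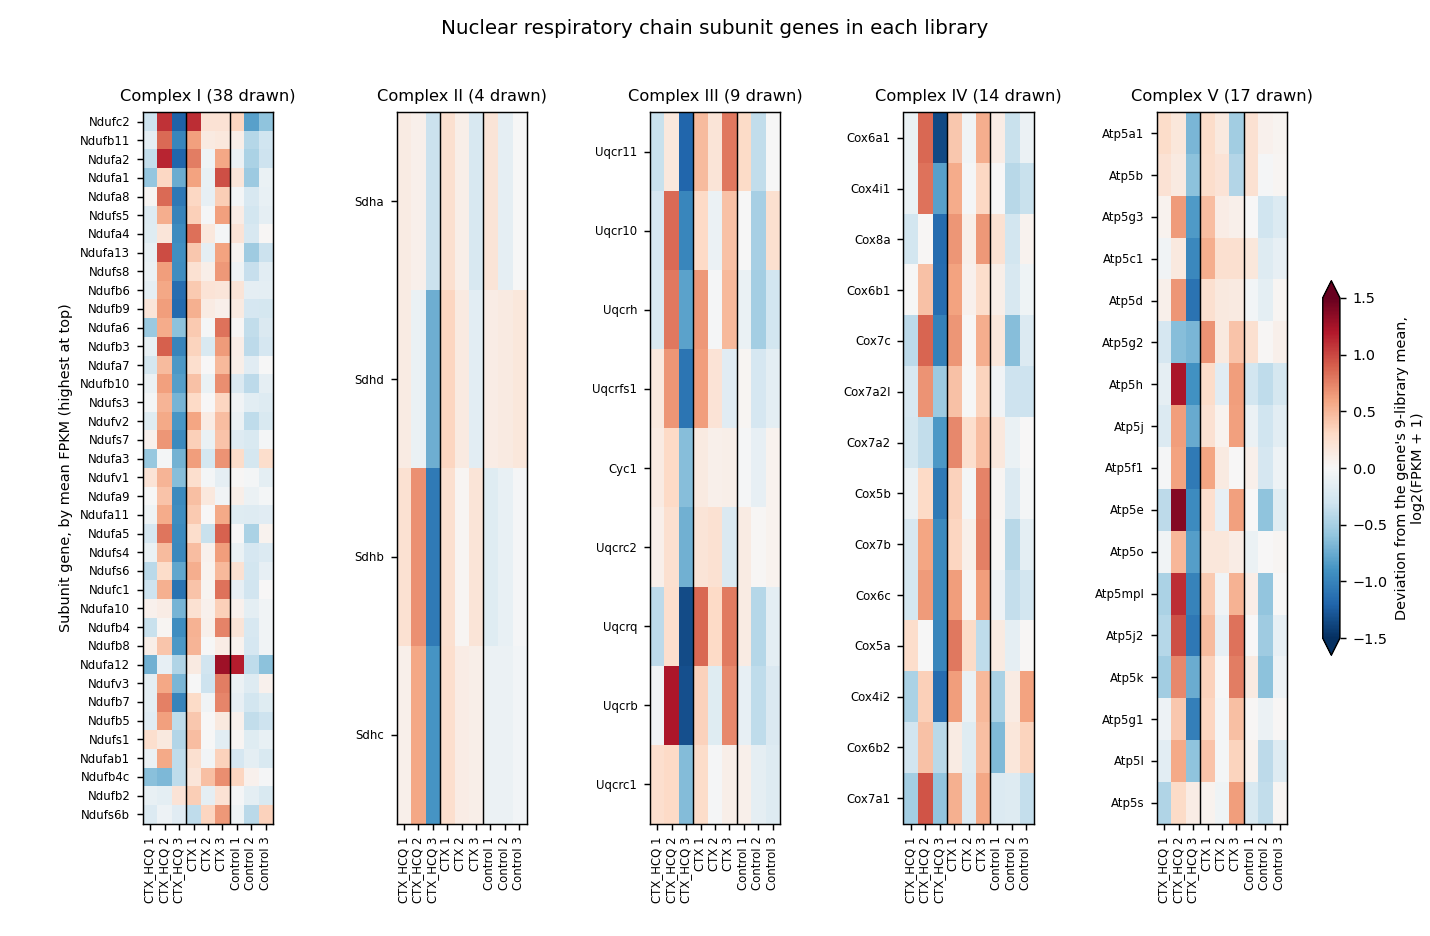
Each row is a subunit gene, ordered within its complex by mean FPKM, and each column a library; colour gives the deviation of log2(FPKM + 1) from the gene's mean over the 9 libraries, cut at 1.5 on either side; 1 member of complex I is not drawn. The CTX_HCQ 3 column is blue for nearly all genes, and over the 83 members CTX_HCQ 3 lay below the mean for 81, while CTX 1 lay above it for 81, CTX_HCQ 2 for 74 and CTX 3 for 71.

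CTX_HCQ 3 had the lowest sum in all 5 complexes, and CTX_HCQ 2 had the highest in all but complex II, where CTX 1 was highest. Complex I summed to 1693, 2950 and 978 FPKM in CTX_HCQ, 2726, 1899 and 2558 FPKM in CTX and 1995, 1500 and 1685 FPKM in Control. Complex II summed to 278, 301 and 157 FPKM in CTX_HCQ, 304, 268 and 240.3 FPKM in CTX and 260.6, 245.7 and 259.5 FPKM in Control. Within CTX, replicate 3 was close to replicate 1 in complex I and was the lowest of the group in complex II. Complex III summed to 604, 938 and 327 FPKM in CTX_HCQ, 875, 682 and 842 FPKM in CTX and 667, 517 and 619 FPKM in Control. Complex IV summed to 1686, 2902 and 878 FPKM in CTX_HCQ, 2699, 1892 and 2652 FPKM in CTX and 1996, 1492 and 1736 FPKM in Control. In both, CTX_HCQ 2 was above every other library and CTX_HCQ 3 below every other. Complex V summed to 1330, 1822 and 740.4 FPKM in CTX_HCQ, 1681, 1413 and 1396 FPKM in CTX and 1402, 1173 and 1259 FPKM in Control.

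**Figure D2:**
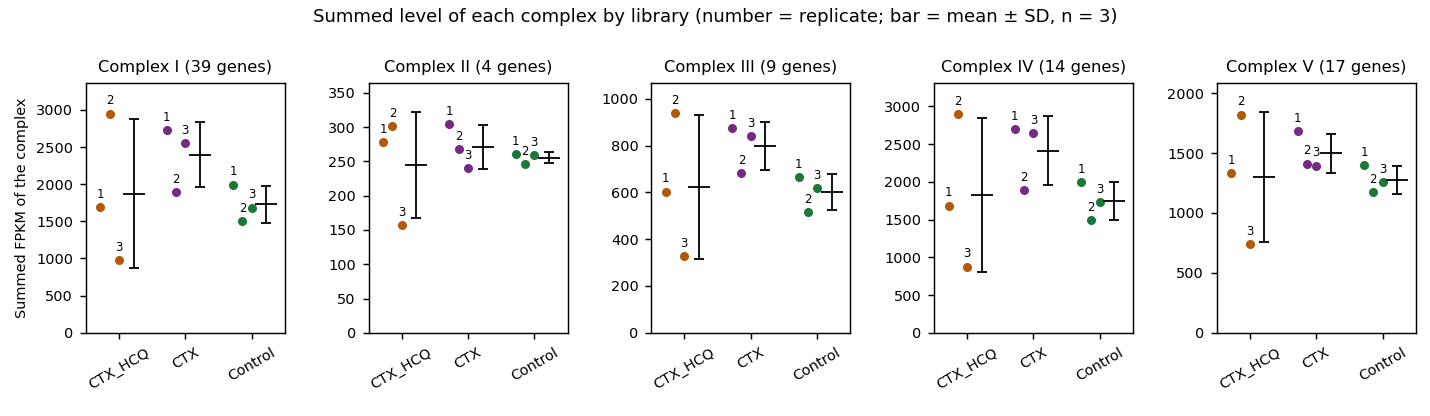
Summed FPKM of each complex in each library, with the replicate number above the point and the mean ± SD of 3 libraries as a bar, on axes that start at 0. The CTX_HCQ libraries span the widest range in every complex, from 978 to 2950 FPKM in complex I and from 157 to 301 FPKM in complex II.

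The ratio of CTX_HCQ 2 to CTX_HCQ 3 had a median of 2.76 over the 83 members. By complex its median was 2.58 in complex I, 2.20 in complex II, 3.06 in complex III, 3.01 in complex IV and 2.83 in complex V. The ratio was highest for Uqcrb, a small subunit of complex III near the ubiquinone site, at 6.09. It was lowest for Ndufb2, an accessory subunit of the complex I membrane arm, at 0.696. Ndufb2 stood near the filter, at 1.68 FPKM in CTX_HCQ 2, 2.41 FPKM in CTX_HCQ 3 and at most 2.83 FPKM in any library. Over all 9 libraries the highest level of a member was between 1.49 and 6.09 times its lowest, with a median of 3.09.

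For CTX_HCQ against CTX, all 83 members were lower in CTX_HCQ by the group means, beside 47.9% of all tested genes (52.1% were higher), and none passed the test. The limma fit over 14431 genes called 0 genes at an adjusted p of 0.05, and 785 genes had an unadjusted p under 0.05. Among the members, 10 had an unadjusted p under 0.05, all lower in CTX_HCQ, beside 3.6% of all genes lower and 1.84% higher. This count was 54 without CTX_HCQ 2, 5 without CTX_HCQ 3, 5 without CTX 3, 6 without CTX 1 and 19 with library weights. The shares of all genes just given belong to the fit above, and those of these settings are not given here. These counts therefore cannot be judged against a background. With limma voom on the recovered reads the calls were also 0 and 11 members had an unadjusted p under 0.05. Adjusted p over the members ran from 0.394 to 0.997. The CTX_HCQ and CTX libraries did not overlap for 8 members (9.64%), all lower in CTX_HCQ, beside 4.57% of all genes lower and 3.45% higher: Ndufb4, Ndufb4c, Uqcr11, Uqcrq, Cox8a, Cox7a2, Atp5c1 and Atp5g2.

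The median log2 difference, CTX_HCQ minus CTX, was -0.44 in complex I, -0.21 in complex II, -0.34 in complex III, -0.56 in complex IV and -0.30 in complex V, with 0.01 over all tested genes. These medians depended on both CTX_HCQ 2 and CTX_HCQ 3, which pulled them in opposite directions. Without CTX_HCQ 3 they were -0.05, 0.12, 0.09, -0.13 and 0.03 in the same order, so that complexes II, III and V changed sign. Without CTX_HCQ 2 they were -0.82, -0.48, -0.83, -0.95 and -0.78, and 55 members did not overlap, beside 16.3% of all genes in that direction. With the trend on gene length removed from each library they were -0.28, -0.11, -0.18, -0.40 and -0.24.

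For CTX_HCQ against Control, 39 members were higher and 44 lower, beside 48.1% and 51.9% of all genes, none passed the test, and all adjusted p were 1. The fit called 0 genes with limma and 0 with voom, and 312 genes had an unadjusted p under 0.05 with limma. The members with an unadjusted p under 0.05 were Ndufb4c, Cox7a2 and Atp5g2, all lower in CTX_HCQ (3.61%, beside 1.07% of all genes lower and 1.09% higher). The same 3 were the members whose groups did not overlap (3.61%, beside 3.06% of all genes lower and 3.25% higher, a share near the background). The median log2 difference was 0.00 in complex I, -0.03 in complex II, -0.04 in complex III, -0.06 in complex IV and 0.00 in complex V. Leaving out CTX_HCQ 3 gave 0.34, 0.24, 0.36, 0.32 and 0.38 and 20 members above Control without overlap, beside 10.8% of all genes. Leaving out CTX_HCQ 2 gave -0.37, -0.32, -0.38, -0.44 and -0.42.

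For CTX against Control, 79 members were higher in CTX and 4 lower (beside 49.5% of all tested genes higher and 50.5% lower), and none passed the test. The fit called 0 genes with limma and 0 with voom, and 648 genes but no member with library weights. At an unadjusted p under 0.05 limma gave 1126 genes but no member, beside 3.6% of all genes higher and 4.2% lower, and voom gave 2 members. The member count was 37 with library weights, 25 with the CTX and Control libraries alone in the fit, 10 without CTX_HCQ 2 and 8 without CTX_HCQ 3. Over all 14431 genes the counts rose too, to 3935, 2067, 1693 and 1443 in the same order. Adjusted p over the members ran from 0.647 to 0.997. The groups did not overlap for 27 members, all higher in CTX, a share of 32.5% beside 8.72% of all genes higher and 11% lower. The count was 61 without CTX 2, beside 18.5% of all genes, and 56 without Control 1, beside 19.1%. Among the 4 members lower in CTX were Atp5a1, Atp5b and Sdhd.

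By complex, 12 of 39 members of complex I, 2 of 4 of complex II, 3 of 9 of complex III, 4 of 14 of complex IV and 6 of 17 of complex V lay above Control without overlap. Over all tested genes the share above Control without overlap was 8.72%. The median log2 difference, CTX minus Control, was 0.39 in complex I, 0.12 in complex II, 0.34 in complex III, 0.46 in complex IV and 0.40 in complex V, with -0.0045 over all tested genes. Without CTX 3 these were 0.32, 0.19, 0.32, 0.41 and 0.33. With the length trend removed they were 0.25, 0.09, 0.22, 0.28 and 0.28. Since CTX_HCQ vs CTX and CTX vs Control share the CTX libraries, and the comparisons with Control share those of Control, the opposite signs are not independent of each other.

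**Figure D3:**
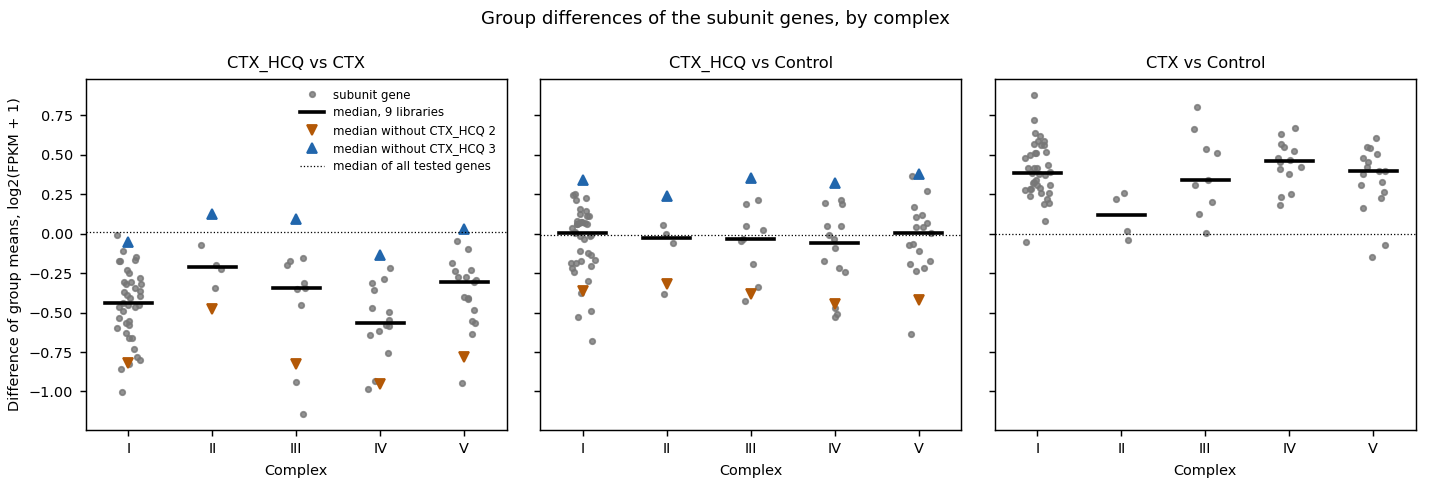
Each grey point is a subunit gene, placed by its difference of group means in log2(FPKM + 1); black bars are medians per complex, triangles the medians without CTX_HCQ 2 (pointing down) or CTX_HCQ 3 (pointing up), and the dotted line the median of all tested genes. In the panels with CTX_HCQ the triangles lie on either side of the bar in every complex, for example -0.95 and -0.13 around -0.56 for complex IV against CTX.

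Markers of several other cell types varied between the same libraries, and their part in the subunit differences was not tested. All 5 luteal markers were tested, with none at 0, and summed to 4348, 5573 and 2465 FPKM in CTX_HCQ, 7859, 6044 and 5608 FPKM in CTX and 6149, 3340 and 4095 FPKM in Control. As for the subunits, CTX_HCQ 3 was the lowest library and CTX 1 lay above every Control library. Unlike for the subunits, the luteal sum was highest in CTX 1, and CTX_HCQ 2 and CTX 3 lay below Control 1. All 3 markers of oviduct and ciliated epithelium were tested, with none at 0, and summed to 8.67, 7.70 and 14.5 FPKM in CTX_HCQ, 108, 64.97 and 371 FPKM in CTX and 71.6, 6.87 and 3.55 FPKM in Control. Of 4 striated muscle markers none passed the filter and their sum stayed at or below 0.660 FPKM, and Ucp1, the brown fat uncoupling protein, was listed at 0 in all 9 libraries. The 4 stromal markers, all tested with none at 0, summed to 124, 116 and 54.2 FPKM in CTX_HCQ, 68.6, 73.0 and 63.9 FPKM in CTX and 104, 94.8 and 91.9 FPKM in Control, so that CTX lay below Control without overlap. The 3 tested of 4 smooth muscle markers summed to 47.9, 151 and 46.6 FPKM in CTX_HCQ, 83.5, 74.5 and 102 FPKM in CTX and 121, 37.7 and 52.3 FPKM in Control, with CTX_HCQ 2 the highest library. The 3 erythroid markers summed to 272 to 750.5 FPKM in CTX_HCQ, 317 to 496 FPKM in CTX and 431 to 3038 FPKM in Control. Sums of the theca, macrophage, adipocyte and oocyte markers overlapped between all groups. The 4 endothelial markers summed to at most 36.9 FPKM in CTX_HCQ, 24.7 to 46.5 FPKM in CTX and 13.1 to 36.9 FPKM in Control.

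Complex I has 7 nuclear core subunits, which hold the flavin and the iron-sulfur clusters of the peripheral arm, among them Ndufv1, Ndufv2, Ndufs1 and Ndufs8. Their median log2 difference was -0.28 for CTX_HCQ vs CTX, 0.07 for CTX_HCQ vs Control and 0.34 for CTX vs Control, beside -0.46, -0.01 and 0.40 for the other 32 members. Ndufv1, which carries the flavin, measured 52.9, 65.4 and 29.0 FPKM in CTX_HCQ, 54.7, 44.9 and 41.8 FPKM in CTX and 46.5, 44.7 and 41.4 FPKM in Control. The groups overlapped, and CTX and Control lay close together. Ndufv2, its partner with an iron-sulfur cluster, measured 41.7, 70.3 and 25.4 FPKM in CTX_HCQ, 71.4, 51.3 and 65.7 FPKM in CTX and 44.3, 36.1 and 40.3 FPKM in Control. All CTX libraries lay above all Control libraries for Ndufv2, with a log2 difference of 0.62 (SE 0.32, limma adjusted p 0.653).

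Ndufs1, the largest core subunit, measured 15.2, 14.1 and 9.03 FPKM in CTX_HCQ, 17.8, 12.5 and 11.1 FPKM in CTX and 12.8, 10.9 and 11.5 FPKM in Control, and it was among the few members below their own mean in CTX 3. Ndufs8, a core subunit that carries iron-sulfur clusters, measured 57.4, 94.7 and 31.6 FPKM in CTX_HCQ, 71.5, 65.1 and 96.3 FPKM in CTX and 58.2, 47.7 and 54.8 FPKM in Control. Its CTX libraries lay above those of Control and its CTX_HCQ libraries lay on both sides.

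Among the accessory subunits of complex I, Ndufc2, a membrane arm subunit and the most abundant member of the complex, measured 139.6, 370.4 and 74.3 FPKM in CTX_HCQ, 377, 202 and 203 FPKM in CTX and 218, 98.5 and 114 FPKM in Control. Its log2 difference of 0.88 for CTX vs Control was the highest of the 83 members, with an SE of 0.55 and a limma adjusted p of 0.658, and the groups overlapped. Ndufa1, a small membrane arm subunit encoded on the X chromosome, measured 58.7, 110 and 52.4 FPKM in CTX_HCQ, 134, 81.7 and 174 FPKM in CTX and 100.2, 60.3 and 82.5 FPKM in Control. These values were low in CTX_HCQ 3 and CTX_HCQ 1 and highest in CTX 3, with overlap between the groups. Ndufb4, another membrane arm subunit, measured 18.7, 24.4 and 12.04 FPKM in CTX_HCQ, 34.6, 25.2 and 40.5 FPKM in CTX and 27.5, 20.1 and 22.9 FPKM in Control. For Ndufb4 the CTX_HCQ libraries lay below those of CTX without overlap, by a log2 of -0.86 (SE 0.27, limma adjusted p 0.710).

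Ndufa1, Ndufa3 and Ndufs6 had an unadjusted p under 0.05 against CTX with overlapping groups. Ndufa3, a small membrane arm subunit, measured 29.6, 43.7 and 26.9 FPKM in CTX_HCQ, 69.5, 37.0 and 71.6 FPKM in CTX and 54.2, 36.8 and 53.6 FPKM in Control (CTX_HCQ vs CTX log2 -0.78, SE 0.30, limma adjusted p 0.877). Ndufs6, a zinc-binding subunit of the peripheral arm, measured 26.9, 43.9 and 20.5 FPKM in CTX_HCQ, 53.0, 37.4 and 50.6 FPKM in CTX and 42.2, 29.4 and 33.0 FPKM in Control (log2 -0.66, SE 0.28, limma adjusted p 0.906). Ndufa13, which is also known as a cell death regulator, had the highest CTX_HCQ vs Control difference of the complex. It measured 58.0, 124 and 32.5 FPKM in CTX_HCQ, 83.2, 56.8 and 95.5 FPKM in CTX and 64.5, 42.8 and 49.9 FPKM in Control, with CTX_HCQ on both sides of the other groups.

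Ndufa12 did not share the pattern of its complex and was singled out after its values were seen. This accessory subunit of the peripheral arm measured 8.69, 13.7 and 10.7 FPKM in CTX_HCQ, 16.5, 12.1 and 37.7 FPKM in CTX and 35.3, 11.3 and 9.47 FPKM in Control. It was high in CTX 3 and Control 1 alone. Ndufb4c and Ndufs6b carry symbols of the rule but are annotated as processed pseudogenes in GENCODE M21, and reads may be shared with Ndufb4 and Ndufs6. Ndufb4c measured 1.39, 1.32 and 1.84 FPKM in CTX_HCQ, 3.201, 4.07 and 4.996 FPKM in CTX and 3.63, 2.86 and 2.64 FPKM in Control, from 9 to 32 reads a library. Its CTX_HCQ libraries lay below all others, with log2 differences of -1.01 against CTX (SE 0.19, limma adjusted p 0.394) and -0.68 against Control (SE 0.19, limma adjusted p 1).

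At the edge of the filter stood Ndufs6b, at 1 FPKM or more in 3 libraries from 2 to 10 reads. Just outside were Cox6a2 and Cox6c2, each at 1 FPKM or more in 1 library, with means of 0.499 and 0.487 FPKM. The other 82 members reached 1 FPKM in all 9 libraries. Without the annotated pseudogenes Ndufb4c and Ndufs6b the complex I medians kept their values of -0.44 against CTX and 0.39 for CTX vs Control.

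Complex II is the succinate dehydrogenase of the citric acid cycle. Sdha, its flavoprotein, varied least among the 83 members, at 1.49 times from the lowest to the highest library. It measured 89.5, 86.2 and 65.2 FPKM in CTX_HCQ, 97.3, 87.1 and 69.1 FPKM in CTX and 93.5, 74.5 and 81.5 FPKM in Control, with overlap between all groups. Sdhb, the iron-sulfur subunit, measured 63.3, 87.2 and 25.4 FPKM in CTX_HCQ, 63.7, 54.9 and 61.7 FPKM in CTX and 47.3, 49.8 and 53.1 FPKM in Control. Sdhc, a membrane anchor, followed Sdhb, at 37.3, 53.1 and 18.7 FPKM in CTX_HCQ, 42.1, 38.2 and 37.5 FPKM in CTX and 33.2, 33.0 and 34.3 FPKM in Control. For both, CTX lay above Control without overlap, with log2 differences of 0.26 (SE 0.37) for Sdhb and 0.22 (SE 0.31) for Sdhc.

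Sdhd, the other anchor, measured 87.4, 74.6 and 47.8 FPKM in CTX_HCQ, 101, 88.0 and 72.1 FPKM in CTX and 86.6, 88.4 and 90.6 FPKM in Control. Unlike Sdhb and Sdhc it lay below its own mean in CTX_HCQ 2. In CTX 3 the median deviation in log2(FPKM + 1) exceeded that of complex II by 0.52 in complex I, 0.48 in complex III, 0.55 in complex IV and 0.47 in complex V. In the other 8 libraries these gaps lay between -0.37 and 0.33. Complex II had the longest median exon length of the complexes, at 2744 bases, and in CTX 3 the members' deviations fell with length (Spearman -0.391). The part of length in the gap was not tested.

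In complex III, Cyc1, which holds cytochrome c1, Uqcrfs1, the Rieske iron-sulfur protein, and the core proteins Uqcrc1 and Uqcrc2 all overlapped between CTX_HCQ and CTX. Uqcrc1 measured 54.7, 56.3 and 28.9 FPKM in CTX_HCQ, 55.6, 45.2 and 48.9 FPKM in CTX and 48.2, 41.8 and 40.02 FPKM in Control. Cyc1 measured 86.1, 96.9 and 50.2 FPKM in CTX_HCQ, 86.7, 82.9 and 83.6 FPKM in CTX and 78.0, 72.5 and 81.9 FPKM in Control. Uqcrfs1 measured 89.1, 128 and 37.3 FPKM in CTX_HCQ, 125, 93.1 and 71.5 FPKM in CTX and 82.3, 67.8 and 72.9 FPKM in Control. Uqcrc2 measured 62.1, 69.6 and 35.3 FPKM in CTX_HCQ, 67.1, 69.0 and 50.4 FPKM in CTX and 64.0, 59.3 and 60.8 FPKM in Control. The low library in CTX_HCQ was replicate 3 for each of them, and in CTX the low one for Uqcrfs1 and Uqcrc2 was also replicate 3.

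Of the small subunits of complex III, Uqcrq and Uqcr11 differed most between CTX_HCQ and CTX, whereas Uqcr10, at a log2 of -0.34, lay close to Uqcrfs1, at -0.31. Uqcrq, a small membrane subunit, measured 39.5, 61.8 and 19.9 FPKM in CTX_HCQ, 95.03, 64.1 and 90.1 FPKM in CTX and 56.4, 38.4 and 46.6 FPKM in Control. Its CTX libraries lay above all others, with log2 differences of -1.14 for CTX_HCQ vs CTX (SE 0.37, limma adjusted p 0.710) and 0.80 for CTX vs Control (SE 0.37, limma adjusted p 0.647). Uqcr11 measured 87.4, 124 and 47.9 FPKM in CTX_HCQ, 154, 127 and 192 FPKM in CTX and 136, 85.4 and 110 FPKM in Control. CTX_HCQ lay below CTX without overlap for Uqcr11, by a log2 of -0.94 (SE 0.35, limma adjusted p 0.833). Uqcrh, the hinge protein that guides cytochrome c, measured 70.8, 144 and 47.0 FPKM in CTX_HCQ, 130.3, 82.0 and 116 FPKM in CTX and 77.3, 58.1 and 68.2 FPKM in Control. Uqcr10, another small subunit, measured 72.0, 155 and 43.2 FPKM in CTX_HCQ, 106, 80.3 and 117 FPKM in CTX and 85.1, 60.2 and 102 FPKM in Control. Uqcrh and Uqcr10 were highest in CTX_HCQ 2 and lowest in CTX_HCQ 3.

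Complex IV held the most abundant member of the whole set, Cox6a1, the broadly expressed form of a regulatory subunit. It measured 631, 1225 and 265 FPKM in CTX_HCQ, 895, 653 and 989 FPKM in CTX and 727, 534 and 634 FPKM in Control, so that the CTX_HCQ libraries enclosed the other 6. Its stretch of promoter above holds both NRF1 and ETS letters. Cox4i1, the broadly expressed form of the largest nuclear subunit, measured 251, 473 and 153 FPKM in CTX_HCQ, 397, 266 and 334 FPKM in CTX and 272, 202 and 214 FPKM in Control. Cox5a measured 27.7, 22.8 and 11.1 FPKM in CTX_HCQ, 40.2, 28.2 and 17.4 FPKM in CTX and 25.2, 20.7 and 23.1 FPKM in Control. It lay at its mean in CTX_HCQ 2 and below it in CTX 3, whereas Cox5b lay above its own mean in both. Cox5b, a zinc-binding subunit, measured 63.7, 83.5 and 32.0 FPKM in CTX_HCQ, 86.7, 66.8 and 114 FPKM in CTX and 69.2, 58.5 and 66.7 FPKM in Control.

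Cox8a, one of the smallest subunits, measured 213, 262 and 115 FPKM in CTX_HCQ, 409, 274 and 403 FPKM in CTX and 301, 213 and 267 FPKM in Control. All CTX_HCQ libraries lay below all CTX libraries, by a log2 of -0.93 (SE 0.34, limma adjusted p 0.833). Cox7a2, the broadly expressed form of the subunit at the dimer face, measured 69.1, 64.2 and 45.4 FPKM in CTX_HCQ, 139, 99.9 and 115 FPKM in CTX and 93.5, 77.8 and 83.8 FPKM in Control. Here the 3 groups did not overlap at all: CTX_HCQ was lowest and CTX highest. The log2 difference was -0.98 for CTX_HCQ vs CTX (SE 0.23, limma adjusted p 0.499) and -0.80 without CTX_HCQ 3. It was -0.53 for CTX_HCQ vs Control (SE 0.23, limma adjusted p 1) and 0.46 for CTX vs Control (SE 0.23, limma adjusted p 0.653).

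Cox6c had the highest CTX vs Control difference of the complex, at a log2 of 0.67 (SE 0.36, limma adjusted p 0.653). This small subunit measured 42.9, 81.0 and 26.2 FPKM in CTX_HCQ, 80.4, 52.5 and 80.3 FPKM in CTX and 48.7, 39.97 and 42.3 FPKM in Control. Cox7b, another small subunit, measured 45.1, 81.2 and 27.1 FPKM in CTX_HCQ, 67.1, 56.1 and 90.8 FPKM in CTX and 53.8, 39.7 and 47.9 FPKM in Control. For both, CTX lay above Control without overlap, and CTX_HCQ held libraries above and below all of Control.

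The relatives of Cox7a2 did not share its order. Cox7a1, the form known from heart and skeletal muscle, measured 2.14, 7.59 and 1.95 FPKM in CTX_HCQ, 5.45, 2.86 and 5.69 FPKM in CTX and 2.86, 2.92 and 2.49 FPKM in Control. Cox7a2l, which joins complexes III and IV in supercomplexes, measured 77.3, 146 and 62.4 FPKM in CTX_HCQ, 124, 90.9 and 115 FPKM in CTX and 87.6, 73.5 and 73.6 FPKM in Control. Both were highest in CTX_HCQ 2, where Cox7a2 was below its mean. Other alternative forms stood low: Cox4i2, known as the lung and oxygen-responsive form, measured 3.72 to 12.4 FPKM in CTX_HCQ, 8.73 to 15.2 FPKM in CTX and 6.504 to 14.9 FPKM in Control. Cox6b2, known from testis, measured 4.65 to 9.14 FPKM in CTX_HCQ, 5.57 to 9.23 FPKM in CTX and 3.72 to 8.43 FPKM in Control. Cox6a2 and Cox8b, known from muscle, lay below the filter, and Cox7b2 and Cox8c, known from testis, were listed at 0 in every library.

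Ndufa4, counted with complex I by its symbol and now known as a subunit of complex IV, measured 59.5, 76.9 and 34.7 FPKM in CTX_HCQ, 121, 75.6 and 65.8 FPKM in CTX and 77.6, 57.0 and 68.0 FPKM in Control. Its CTX_HCQ vs CTX log2 difference of -0.63 (SE 0.33) lay within the range of complex IV, from -0.98 to -0.21, and also within that of complex I, from -1.01 to -0.01.

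In complex V the alpha and beta subunits, Atp5a1 and Atp5b, which form the catalytic hexamer, were the most abundant members of the complex. Atp5a1 measured 293, 272 and 150.0 FPKM in CTX_HCQ, 292, 268 and 168 FPKM in CTX and 284, 253 and 249 FPKM in Control. Atp5b measured 279, 264 and 156 FPKM in CTX_HCQ, 288, 276 and 177 FPKM in CTX and 282, 238 and 245 FPKM in Control. Both were lowest in CTX_HCQ 3 and next lowest in CTX 3. Atp5c1, the gamma subunit that turns inside the hexamer, measured 114, 131 and 59.9 FPKM in CTX_HCQ, 174, 140.4 and 140.1 FPKM in CTX and 133, 103 and 108 FPKM in Control, so that CTX lay above both other groups without overlap.

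Some smaller subunits were highest in CTX_HCQ 2. Atp5h, of the peripheral stalk, measured 63.9, 166 and 36.9 FPKM in CTX_HCQ, 85.3, 62.6 and 109 FPKM in CTX and 58.2, 53.9 and 58.5 FPKM in Control. Its CTX_HCQ vs Control log2 difference of 0.36 (SE 0.45, limma adjusted p 1) was the highest of all members, with CTX_HCQ 2 above and CTX_HCQ 3 below all other libraries. Atp5e, the epsilon subunit of the central stalk, measured 32.1, 112 and 21.5 FPKM in CTX_HCQ, 51.0, 39.0 and 65.4 FPKM in CTX and 42.7, 27.5 and 37.5 FPKM in Control. Atp5s, a factor that is not a stable part of the enzyme, measured 3.76, 6.96 and 6.01 FPKM in CTX_HCQ, 5.77, 5.25 and 9.08 FPKM in CTX and 4.57, 4.05 and 5.62 FPKM in Control, and was one of 2 members above their mean in CTX_HCQ 3. Atp5j2 and Atp5l, of the membrane part, followed CTX_HCQ 2 as well. Atp5j2 measured 25.8, 69.5 and 16.1 FPKM in CTX_HCQ, 48.8, 32.1 and 62.5 FPKM in CTX and 35.0, 23.9 and 32.1 FPKM in Control. Atp5l measured 7.53, 13.1 and 5.27 FPKM in CTX_HCQ, 11.8, 8.27 and 10.97 FPKM in CTX and 8.83, 6.21 and 7.27 FPKM in Control. The inhibitor gene Atpif1, whose symbol the rule does not match, measured 52.2, 64.7 and 23.4 FPKM in CTX_HCQ, 98.4, 68.4 and 75.6 FPKM in CTX and 54.6, 41.7 and 52.4 FPKM in Control.

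Subunit c, the ring that turns with the passing protons, is encoded by 3 genes whose mature proteins are the same, and these 3 genes did not share a pattern. Atp5g2 measured 64.8, 49.4 and 47.8 FPKM in CTX_HCQ, 125, 86.1 and 105 FPKM in CTX and 91.8, 78.5 and 81.8 FPKM in Control. Every CTX_HCQ library lay below every CTX and every Control library. The log2 difference was -0.95 for CTX_HCQ vs CTX (SE 0.22, limma adjusted p 0.499) and -0.64 for CTX_HCQ vs Control (SE 0.22, limma adjusted p 1). Without CTX_HCQ 3 the difference from CTX was -0.87, and without CTX_HCQ 2 it was -0.89.

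Atp5g3, the most abundant of the 3, measured 163, 246 and 87.0 FPKM in CTX_HCQ, 217, 171 and 167 FPKM in CTX and 159, 128 and 137 FPKM in Control. Atp5g1 measured 15.7, 22.2 and 7.64 FPKM in CTX_HCQ, 21.0, 16.2 and 23.0 FPKM in CTX and 16.8, 15.5 and 16.8 FPKM in Control. Both had CTX_HCQ 2 above CTX 2 and CTX_HCQ 3 lowest of all, whereas Atp5g2 was nearly level between CTX_HCQ 2 and CTX_HCQ 3. Whether Atp5g2 differed from its copies between groups was not tested.

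**Figure D4:**
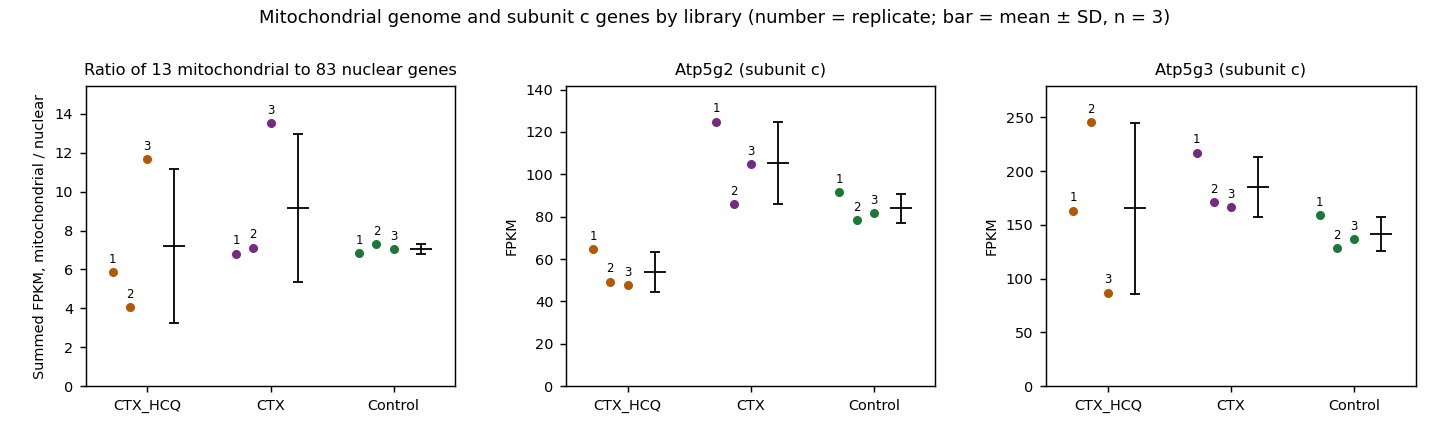
Left, the summed FPKM of the 13 protein genes of the mitochondrial genome divided by that of the 83 nuclear members; middle and right, FPKM of the subunit c genes Atp5g2 and Atp5g3, each by library with the replicate number above the point and the mean ± SD of 3 libraries as a bar. The ratio stands at 13.5 in CTX 3 and 11.7 in CTX_HCQ 3 and between 4.07 and 7.29 elsewhere, and the CTX_HCQ points of Atp5g2 lie below all others.

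The 13 protein genes of the mitochondrial genome kept a near constant ratio to the nuclear subunits in Control, CTX 1 and CTX 2 and departed from it in CTX 3 and the CTX_HCQ libraries. The ratio of their summed FPKM to that of the 83 members was 5.87, 4.07 and 11.7 in CTX_HCQ, 6.82, 7.13 and 13.5 in CTX and 6.82, 7.29 and 7.04 in Control. In CTX_HCQ 3 the nuclear sum was low with a mitochondrial sum of 35970 FPKM, close to the 32800 and 36270 FPKM of CTX_HCQ 1 and 2. In CTX 3 the mitochondrial sum was high, at 104100 FPKM, beside 56480 and 43870 FPKM in CTX 1 and 2, and the nuclear sum was near that of CTX 1. The mean ratio was 7.206 ± 3.98 in CTX_HCQ, 9.16 ± 3.79 in CTX and 7.05 ± 0.236 in Control (SD, n = 3).

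Gene length went with part of the variation. The exon length of the members ran from 348 to 8086 bases. Across the 83 members the Spearman correlation between length and deviation was 0.475, -0.190 and 0.354 in CTX_HCQ, -0.254, 0.048 and -0.391 in CTX and -0.172, 0.337 and -0.028 in Control, given as a description since genes of 1 library share its depth and preparation. The 42 members of median length or shorter had a CTX_HCQ vs CTX median log2 difference of -0.48 and the 41 longer members one of -0.30, and for CTX vs Control these were 0.46 and 0.29. The part of length, RNA quality or preparation in the library differences was not tested beyond the removal of the trend given above.

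**Figure D5:**
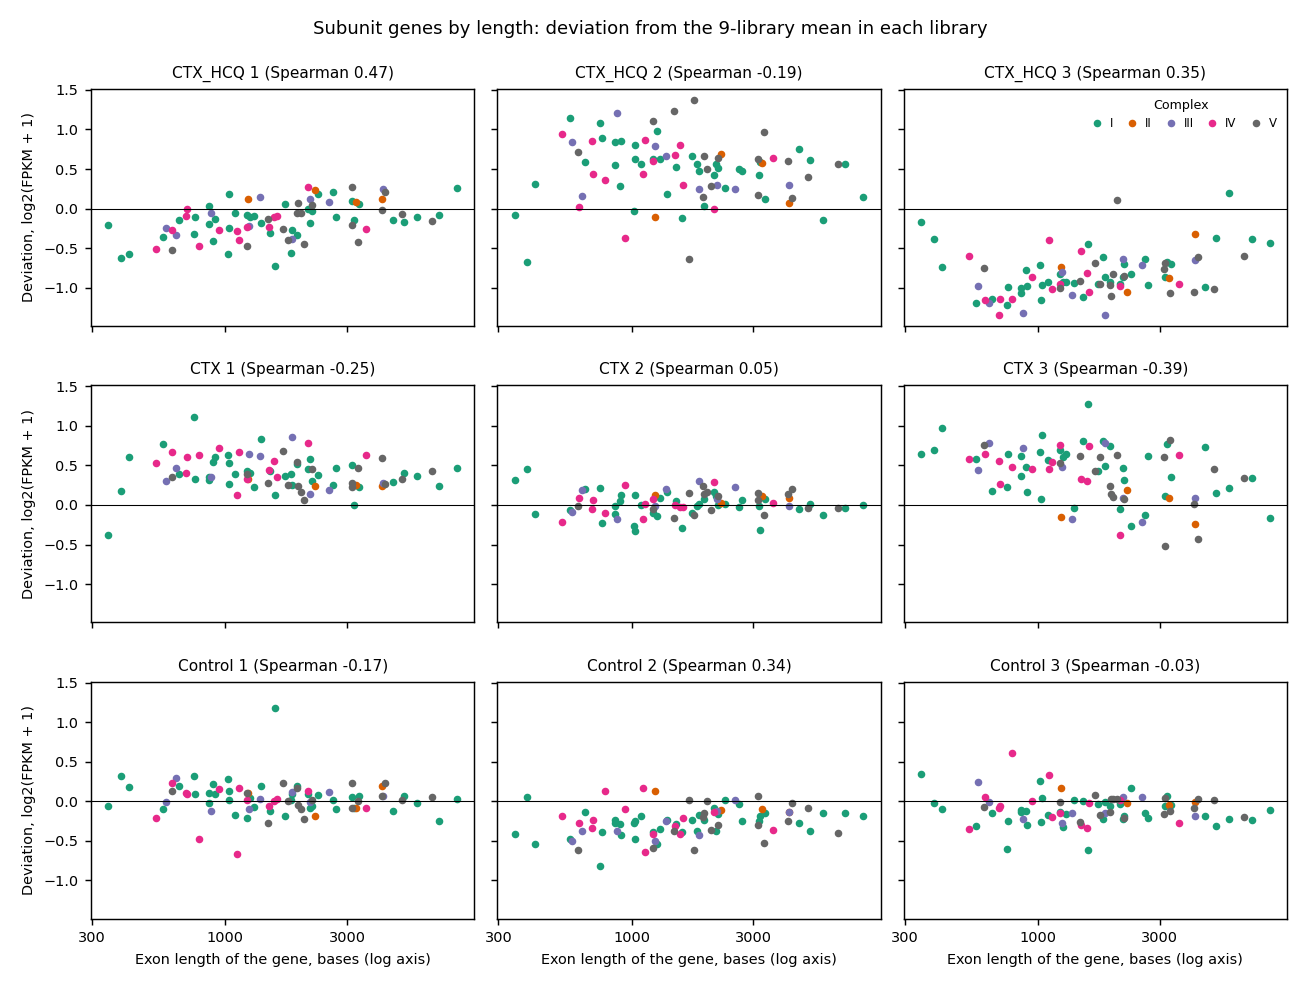
Each point is a subunit gene, with its exon length in bases on a log axis and the deviation of its log2(FPKM + 1) from its 9-library mean, coloured by complex, with a panel per library. CTX_HCQ 3 lies almost wholly below 0 at all lengths, while in CTX 3 the points fall with length (Spearman -0.39).

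Other genes of the chain's pathway were read from fixed lists, none of which had a called member in any comparison. The 17 assembly factors of complex I had a median log2 difference of -0.08 for CTX_HCQ vs CTX and 0.19 for CTX vs Control, and the 20 tested factors of complex IV had -0.07 and 0.11. The subunits had -0.44 and 0.39 in complex I and -0.56 and 0.46 in complex IV. The 4 assembly factors of complex II had -0.28 and 0.32, beside -0.21 and 0.12 for its subunits. The 5 tested factors of complex III had -0.06 and 0.32, beside -0.34 and 0.34 for its subunits, and the 4 factors of complex V had -0.14 and 0.04, beside -0.30 and 0.40. Assembly factors thus lay nearer 0 than the subunits in complexes I, IV and V in both comparisons, not in complex II, and for CTX vs Control only slightly in complex III. The median length of the factors was 2978 bases in complex I, 2476 in complex IV and 2011 in complex V. For the subunits it was 1495, 1120 and 2039 bases. The part of gene length and level in these differences was not tested. Dmac1, which takes part in the assembly of complex I, measured 43.4, 61.1 and 23.7 FPKM in CTX_HCQ, 75.4, 53.8 and 68.4 FPKM in CTX and 51.4, 41.5 and 40.7 FPKM in Control. Uqcc2, which is needed to make cytochrome b, measured 26.9, 32.5 and 20.4 FPKM in CTX_HCQ, 47.3, 38.0 and 65.9 FPKM in CTX and 33.8, 34.6 and 38.4 FPKM in Control, with CTX_HCQ below both other groups but not called (log2 -0.89 against CTX, SE 0.24, limma adjusted p 0.522). Cycs, somatic cytochrome c, measured 15.02, 23.7 and 9.25 FPKM in CTX_HCQ, 29.3, 21.0 and 23.9 FPKM in CTX and 19.2, 15.1 and 17.0 FPKM in Control. The 12 citric acid cycle enzymes had medians of -0.26 and 0.12.

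The genes that were no members but moved most like the set, by Pearson correlation of log2(FPKM + 1) with the members' median deviation over the 9 libraries, were Rpl13 at 0.996, Sec61b at 0.994, Rpl19 at 0.993, Rps19 at 0.993 and Psmb6 at 0.993. Rpl13, a protein of the large cytoplasmic ribosomal subunit, measured 271, 418 and 165 FPKM in CTX_HCQ, 389.5, 315 and 419.6 FPKM in CTX and 304, 263 and 278 FPKM in Control. The 84 tested genes of the cytoplasmic ribosome had median deviations of -0.22, 0.68 and -0.89 in CTX_HCQ, 0.34, -0.03 and 0.52 in CTX and 0.03, -0.28 and -0.16 in Control. The 83 subunit genes had -0.14, 0.56 and -0.91 in CTX_HCQ, 0.39, 0.01 and 0.46 in CTX and 0.03, -0.25 and -0.11 in Control. The 77 tested genes of the mitochondrial ribosome had -0.03, 0.37 and -0.63 in CTX_HCQ, 0.28, -0.01 and 0.23 in CTX and -0.06, -0.11 and -0.02 in Control. The genes of both ribosomes thus shared the order of the libraries at its ends. CTX_HCQ 3 was the lowest library for 91.7% of the cytoplasmic ribosome genes and 88.3% of the mitochondrial ribosome genes, beside 92.8% of the subunits.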

How the data were processed

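RNA of ovarian granulosa cells from 9 libraries was sequenced after poly-T selection, per the labels' protocols. The authors deposited 1 table of FPKM per gene. The submitters' processing notes name the build GRCm39 and, as software, DESeq2 1.20.0, featureCounts 1.5.0-p3, fastp 0.23.2 together with HISAT2 2.0.5. Their roles and the strandedness are not given in the sources used here, so reads of overlapping or antisense genes, and of near-identical copies, cannot be told apart. Symbols and exon lengths came from GENCODE M21, an annotation of another build, and complexes were assigned by symbol.

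Genes with FPKM of at least 1 in at least 3 libraries (14431 of 56748) were analysed as log2(FPKM + 1), which understates changes of low genes. All 9 libraries entered 1 limma 3.58.1 fit (R 4.3.3) with a mean per group and trended variance, and p-values were adjusted over all tested genes by the Benjamini-Hochberg method, with a threshold of 0.05. Whole reads were recovered from FPKM, exon length and library size for 14431 of 14431 tested genes within 0.02 reads (13578 with the annotation's length, 853 with a searched one), and served for limma voom. The fit was tested on simulated data in which the noise of each gene was drawn independently. Such data hold no departure shared by the genes of a library, so that test does not cover those seen here. Libraries of 1 group differed by more than sampling noise (chi-square of recovered reads over its degrees of freedom, 15.3 to 161).

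Members and lists were chosen with earlier results of these data known. Named are, per complex, the 4 members of smallest p in each comparison, the most abundant and the extremes, with core subunits, isoforms and members at the filter's edge; Ndufa12, Ndufb2, Atp5e and the members listed as departing from the pattern were chosen after their values were seen. Alternatives covered pseudocount, filter, scaling, length trend, library weights, samples in the fit, replicate block, voom and each library left out. The leaving out of pseudogenes, and of libraries from the counts without overlap, was chosen after seeing the data. The values of 1 member are not reported here.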

Additional observations from a re-analysis of the deposited data

How the results depend on the processing

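No member was called under any of the alternatives. Over all genes, library weights gave 648 calls for CTX vs Control (337 higher and 311 lower), 1 for CTX_HCQ vs CTX and 1 for CTX_HCQ vs Control, against 0 in each, and the cause was not tested. Leaving out 1 library gave 0 to 13 calls for CTX vs Control, the 13 without Control 1, and 0 to 10 for CTX_HCQ vs CTX, the 10 also without Control 1, and 0 in each for CTX_HCQ vs Control. With 1 library left out, the median log2 differences for CTX vs Control lay between 0.31 and 0.56 in complex I, 0.04 and 0.19 in complex II, 0.26 and 0.47 in complex III, 0.38 and 0.61 in complex IV and 0.30 and 0.47 in complex V. For CTX_HCQ vs CTX they lay between -0.82 and -0.05, -0.48 and 0.12, -0.83 and 0.0926, -0.95 and -0.13, and -0.78 and 0.0322 in the same order, with the ends given by CTX_HCQ 2 and CTX_HCQ 3. For CTX_HCQ vs Control they lay between -0.37 and 0.34, -0.32 and 0.24, -0.38 and 0.36, -0.44 and 0.32, and -0.42 and 0.38. With CTX 3 and CTX_HCQ 3 both left out, the CTX_HCQ vs CTX median of complex IV was -0.0805 and 23 members did not overlap for CTX_HCQ vs Control, 20 higher and 3 lower, beside 10.8% and 7.31% of all genes. Members without overlap numbered 27 to 61 for CTX vs Control, 8 to 55 for CTX_HCQ vs CTX and 3 to 23 for CTX_HCQ vs Control with 1 library left out. The shares of all genes grew too, up to 19.1% higher and 22.4% lower for CTX vs Control, and without CTX_HCQ 3 the 8 members lower for CTX_HCQ vs CTX stood beside 7.4% of all genes.

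Deviations from the group mean correlated between -0.457 and 0.135 for same-numbered libraries of different groups, and between -0.291 and 0.315 for differently numbered ones. Deviations from the mean of so few libraries are tied to each other, so these values cannot settle whether replicate numbers pair the libraries. With the replicate block the medians were the same, for example 0.39 for complex I in CTX vs Control, the calls stayed at 0, and 847, 668 and 293 genes had an unadjusted p under 0.05 for CTX vs Control, CTX_HCQ vs CTX and CTX_HCQ vs Control. Among single members 31 values moved by more than the replicate spread under an alternative. Reads per library ran from 2849 to 15040 for Cox6a1, but from 9 to 32 for Ndufb4c and from 2 to 10 for Ndufs6b, where depth limits the precision.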
